A study of Mus musculus with 26 samples.

Results

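TCRTg101 recovered from leukemia-free mice at day 18 were compared with naive TCRTg101 at day 0, to ask what changed in antigen-specific CD8+ T cells that were not exposed to leukemia. The comparison takes every run whose label gives naive Tg101 cells at day 0 or Tg101 cells from untreated mice at day 18, which were 6 of the 26 runs of the series. They make up 3 of its 15 libraries, with 2 libraries at day 0 and 1 at day 18. A further day 0 library, which was primed with oligo-dT, was left out because it was made by another method.

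TCRTg101 are CD8+ T cells with a transgenic T cell receptor (TCR) for an antigen that C1498 leukemia cells present on the MHC class I molecule Kb. The labels give C57BL/6 mice of wild-type genotype at 6 weeks of age and spleen as the tissue for all 3 libraries. Per the study's methods, Tg101 mice were kept on a Rag2-/- background, and such mice make no B cells and no T cells of other receptors, but keep erythroid and myeloid cells. The day 18 cells were taken from leukemia-free hosts after adoptive transfer, and all cells were purified by fluorescence-activated sorting. Neither the number of mice pooled in a library nor their sex is given in the sources used here. Sample titles place 1 day 0 library in a series called TG and the other in a series called XC, together with the day 18 library. The day 18 library has no replicate, so its spread was taken from the other groups of the experiment.

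Naive CD8+ T cells circulate between blood and lymphoid organs, where they are held in quiescence by factors such as TCF-1, KLF2 and FOXO1 and kept alive by IL-7 and by weak TCR contact with self peptides on MHC class I. Immediate early genes such as Fos, Egr1 and Nr4a1 respond within minutes to TCR contact and also to tissue handling. CD8+ T cells that divide in the absence of antigen take on some marks of memory, among them CD44, the IL-2 receptor β chain, CXCR3 and Eomes.

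Depth was 65615912 estimated counts for the TG library of day 0, 49965571 for the XC library of day 0 and 28320039 for the day 18 library. Levels are given as CPM (counts scaled to a common library size) with TMM factors, which correct for differences in RNA composition between libraries. In the day 18 library the limit that a count of 0 allows (3 reads) is 0.0967 CPM. Runs of one library were summed. The mean chi-square per gene was 15.9 between the runs of the TG library, 1.88 between those of the XC library, 2.36 between those of the day 18 library and 334 between the 2 libraries of day 0, where counting error alone gives a value of about 1.

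The label of CD8+ T cells held in each library. The 6 markers fixed for CD8+ T cells summed to 5998 CPM in the TG library of day 0, 5642 in the XC library and 5754 at day 18. Cd8b1, the β chain of the CD8 co-receptor, was at 2018 CPM at day 0 (TG), 1823 at day 0 (XC) and 1679.6 at day 18. Trbv5, the variable β segment of the transgenic receptor, was at 10415 CPM at day 0 (TG), 7577 at day 0 (XC) and 6219.5 at day 18. Markers of CD4+ T cells were near 0 by comparison, with Cd4 at 5.31, 2.61 and 0.129 CPM in the same order.

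The day 0 libraries held RNA of other cell types that the day 18 library nearly lacked. Erythroid markers, led by the globins, summed to 5284 CPM in the TG library of day 0, 20177 in the XC library and 177 at day 18. Hbb-bs, a β-globin, was at 1939.9, 7903 and 49.3 CPM in the 3 libraries, and Alas2, the erythroid enzyme of heme synthesis, at 39.3, 223 and 0.612 CPM. Both day 0 libraries were thus far above day 18, and the XC library was the higher of the pair.

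Markers of monocytes and macrophages summed to 2289 CPM in the TG library, 285 in the XC library and 24.7 at day 18. All 15 tested members were below both day 0 libraries at day 18. Hmox1, the heme oxygenase of red pulp macrophages, was at 393, 35.8 and 2.71 CPM, and C1qb, a complement subunit that macrophages make, at 343, 30.5 and 1.19 CPM. Marco, a scavenger receptor of marginal zone macrophages, had 0 counts at day 18 against 55.6 and 4.73 CPM at day 0, so its mean at day 0 was at least 312-fold higher. Fcgr1 also had 0 counts at day 18. Macrophage RNA was highest in the TG library, whereas erythroid RNA was highest in the XC library.

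Neutrophil markers summed to 309, 65.1 and 17.7 CPM and dendritic cell markers to 2588, 2361 and 101 CPM, in the same order. Markers of NK cells summed to 5.67, 6.14 and 0.677 CPM, and those of platelets to 3.51, 13.7 and 1.32 CPM. B cell markers did not follow this pattern and summed to 717, 604 and 577 CPM, nearly all of it Ighm. Of the 39 tested markers of erythroid cells, neutrophils, macrophages and dendritic cells, 32 were at least 2-fold below both day 0 libraries at day 18, as were 348 of all 15069 tested genes (2.31%). How much other cell types contributed to the differences below was not tested.

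**Figure D1:**
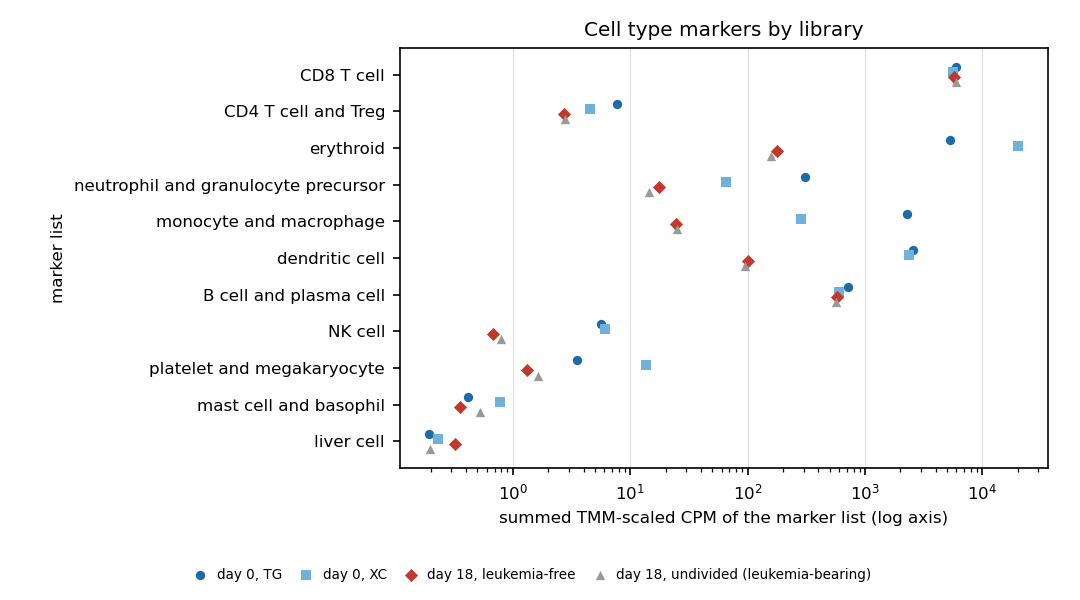
Summed TMM-scaled CPM (log axis) of each cell type's markers in the TG and XC day 0 libraries and the day 18 leukemia-free library. Undivided TCRTg101 of leukemia-bearing mice at day 18 are drawn for reference. CD8 T cell markers coincide in all libraries, whereas erythroid markers go from 5284 and 20177 CPM at day 0 to 177 CPM at day 18, and the macrophage and dendritic cell sums also lie far to the left.

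The day 18 cells differed from day 0 cells of their own series less than the day 0 libraries differed from each other. Among 15069 tested genes, 635 (4.21%) differed by at least 2-fold between the day 18 library and the XC library of day 0, with 190 higher (1.26%) and 445 lower (2.95%) at day 18. The 2 libraries of day 0 differed from each other in this way in 1151 genes (7.64%), of which 536 (3.56%) were higher and 615 (4.08%) lower in the XC library. Against the TG library, 472 genes (3.13%) were higher and 925 (6.14%) were lower at day 18. The median size of the log2 difference was 0.213 between day 18 and the XC library, 0.348 between day 18 and the TG library and 0.337 between the day 0 libraries.

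The undivided TCRTg101 library offers a second view of transferred cells. It was made from the spleen of leukemia-bearing mice on the same day and in the same series. These cells were sorted for undiluted CellTrace Violet, a dye that is diluted at each division. Only 120 genes (0.796%) differed by at least 2-fold between the 2 day 18 libraries, and the median size of the log2 difference was 0.155. Their values are given beside those of the leukemia-free library below. They share the day 0 libraries as a reference, so the 2 comparisons with day 0 are not independent.

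**Figure D2:**
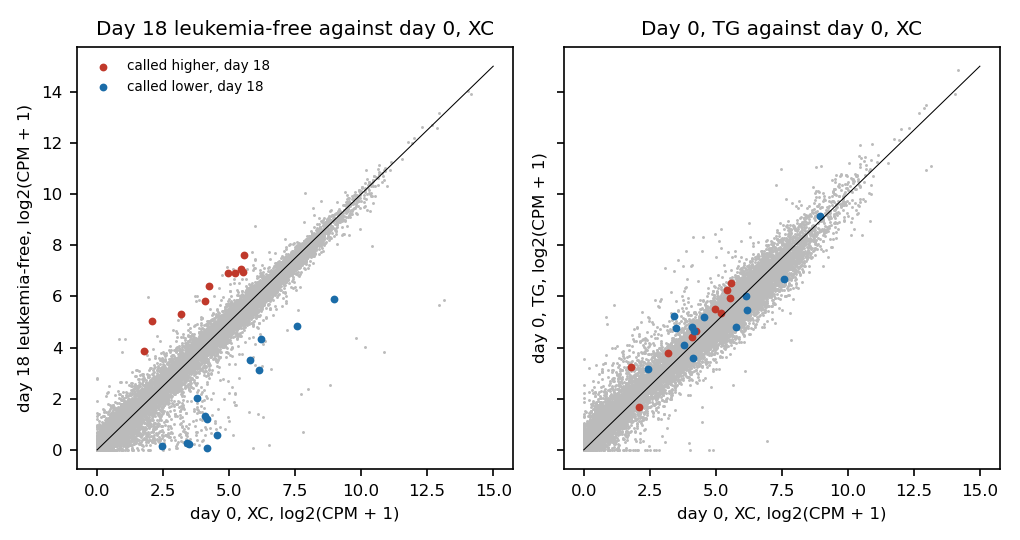
Log2(CPM + 1) of the 15069 tested genes, day 18 leukemia-free (left) and the TG library of day 0 (right), each against the XC library of day 0, with the diagonal as a line. Red and blue points are the genes called higher (10) and lower (13) at day 18. The gray cloud on the left, with 635 genes past 2-fold, is narrower than on the right, with 1151.

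Few genes passed the test. With the spread pooled over 12 libraries and the series as a covariate, edgeR's quasi-likelihood test called 10 genes higher (0.0664% of 15069 tested) and 13 lower (0.0863%), 23 in all (0.153%), at a Benjamini-Hochberg adjusted p under 0.05, and 867 genes had an unadjusted p under 0.05. Every one of the 23 lay above, or below, both day 0 libraries. The labels do not say that libraries came from separate animals, so a p-value measures the spread between these samples, which may be technical. The fit left out both liver libraries of day 7, since the study proposes that they differed in whether antigen had been met. No call remained with that pair included. The calls also depended on both day 0 libraries. Without the TG library edgeR called 0 genes (669 at an unadjusted p under 0.05), and without the series covariate it also called 0 (507 at an unadjusted p under 0.05). DESeq2 on the same 12 libraries called 39 higher and 197 lower. Without the XC library of day 0, 3 genes were called higher and 21 lower, and only 2 of the 23, Egln1 and Cd24a, were among them. Counted directly and with no test, 79 genes (0.524%) were at least 2-fold above both day 0 libraries and 348 (2.31%) at least 2-fold below both. All 13 genes called lower and 8 of the 10 called higher were among them.

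**Figure D3:**
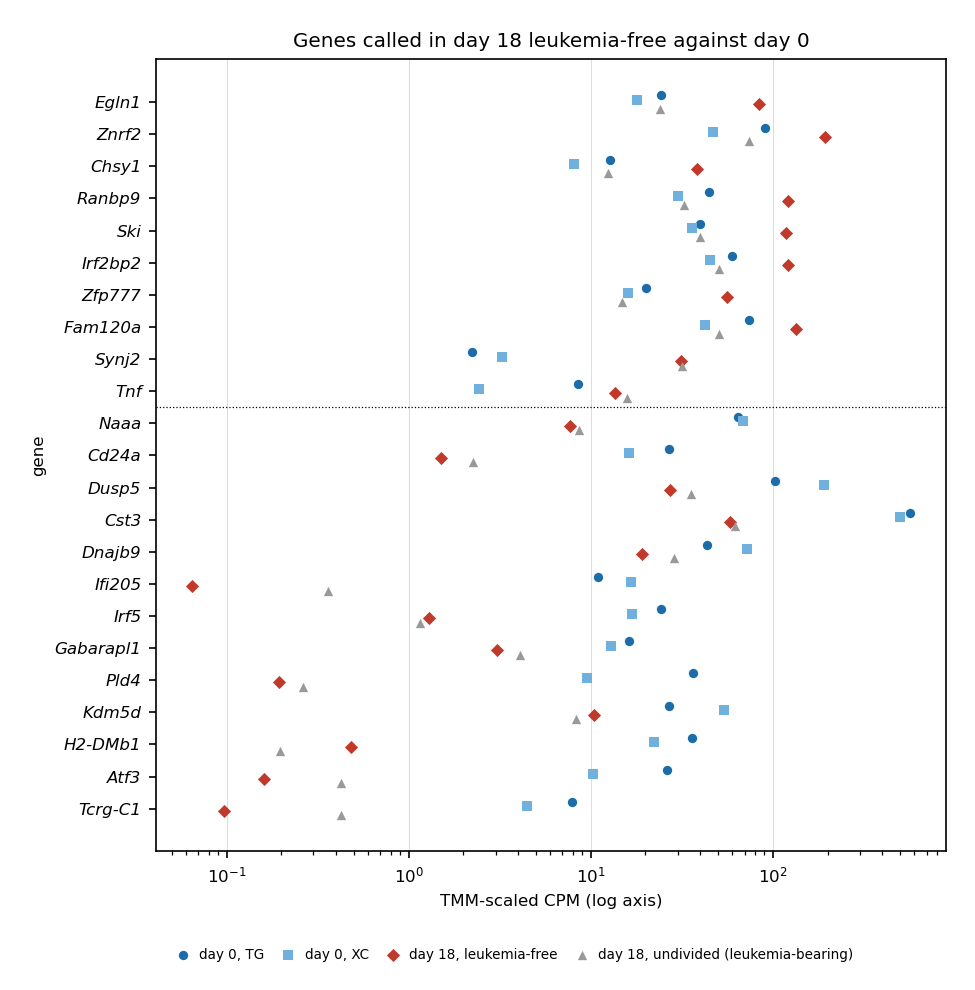
TMM-scaled CPM (log axis) of the 23 called genes, one line per gene, in each day 0 library, the day 18 leukemia-free library and the undivided day 18 library. Above the dotted line, 8 of the 10 genes called higher stand at least 2-fold above the undivided library, with Synj2 and Tnf as the exceptions. Below it, the undivided library lies near the leukemia-free one for most of the 13 genes called lower.

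Each of 5 genes of antigen presentation on MHC class II described here was over 10-fold below both day 0 libraries at day 18. The test called 1 of them lower, as it did 0.0863% of all tested genes. H2-DMb1 encodes a chain of H2-M, which loads peptides onto MHC class II. It was at 35.8 CPM at day 0 (TG), 22.3 at day 0 (XC) and 0.484 at day 18 (15 counts), and it fell in the fit (log2 fold change -5.81 ± 0.91 SE, adjusted p = 0.04 by edgeR). The value was 0.197 CPM in the undivided cells. H2-Ab1, H2-Aa and H2-Eb1 encode MHC class II chains, and Cd74 the invariant chain that guides them. H2-Ab1 was at 578 CPM at day 0 (TG), 449 at day 0 (XC) and 4.77 at day 18, H2-Aa at 252, 209.6 and 3.58 CPM, H2-Eb1 at 203, 249.9 and 4.25 CPM and Cd74 at 932, 902 and 19.8 CPM. None of these 4 passed the test (adjusted p of 0.49 to 0.69), although their day 18 values were over 10-fold below either day 0 library. Cst3, the cysteine protease inhibitor cystatin C that dendritic cells express strongly, fell from 567 and 498 CPM to 58.2 CPM (log2 fold change -2.83 ± 0.40 SE, adjusted p = 0.032). The day 0 levels of each of these genes were within 2-fold of each other in the TG and XC libraries, while those of the summed macrophage and erythroid markers were not. Apart from H2-DMb1, all of them are on the list of dendritic cell markers and make up most of its sum. Others of that list, Itgax, which encodes CD11c, and Flt3, a cytokine receptor of dendritic cell development, were at 8.55, 10.3 and 0.355 CPM and 11.2, 11.7 and 1.84 CPM. What part other cell types had in these values was not tested.

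The promoters of 3 of these genes are shown because the genes lie close together on mouse chromosome 17 and each was over 10-fold below both day 0 libraries at day 18. Each line gives the 100 bases before the start that RefSeq annotates, 5′ to 3′ on the gene's strand (GRCm38.p6). H2-Aa is at chr17:34287824-34287923 on the minus strand, H2-Eb1 at chr17:34305767-34305866 and H2-DMb1 at chr17:34153091-34153190, both on the plus strand. Capitals mark the inverted CCAAT element known as the Y box (GATTGG, on either strand), the cyclic AMP response element (TGACGTCA), and the longest run that the H2-Eb1 and H2-DMb1 stretches share.
H2-Aa: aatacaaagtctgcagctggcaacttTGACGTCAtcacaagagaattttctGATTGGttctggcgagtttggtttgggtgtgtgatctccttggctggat
H2-Eb1: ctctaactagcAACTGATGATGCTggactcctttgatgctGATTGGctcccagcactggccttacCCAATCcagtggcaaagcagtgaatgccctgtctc
H2-DMb1: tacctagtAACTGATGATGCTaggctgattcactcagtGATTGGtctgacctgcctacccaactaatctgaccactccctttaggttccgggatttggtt
The Y box starts 49, 60 and 62 bases before the start in H2-Aa, H2-Eb1 and H2-DMb1, and H2-Eb1 has another on the opposite strand 35 bases before it. A Y box was present in 8.62% of 32851 promoter stretches of this length. The shared run of 13 bases begins 89 bases before the start of H2-Eb1 and 92 before that of H2-DMb1, and 2 of the 32851 stretches hold it, which are these. The run was chosen after the sequences were seen. The cyclic AMP response element of H2-Aa, which 1.15% of stretches hold, starts 74 bases before the start. MHC class II promoters are known to pair an upstream X box with a downstream Y box, which bind factors that recruit CIITA.

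Several other called genes that fell are known from myeloid and dendritic cells. Irf5, a transcription factor of Toll-like receptor signaling, fell from 24.3 and 16.96 CPM to 1.29 CPM (log2 fold change -3.90 ± 0.61 SE, adjusted p = 0.04). Naaa, a lysosomal amidase, fell from 64.4 and 69.0 CPM to 7.67 CPM (log2 fold change -3.03 ± 0.37 SE, adjusted p = 0.017), and its day 0 values were nearly equal. Pld4, an endolysosomal nuclease, had 6 counts at day 18 and was at 36.4, 9.56 and 0.193 CPM in the 3 libraries (log2 fold change -5.89 ± 0.91 SE, adjusted p = 0.04). Ifi205, of an interferon-inducible family, fell from 11.04 and 16.7 CPM to 2 counts at day 18 (log2 fold change -8.01 ± 1.19 SE, adjusted p = 0.035), and its mean at day 0 was 215 times the day 18 level (95% Poisson interval 59.6 to 1776, for the counting error of day 18 only).
Cd24a, a surface glycoprotein of immature blood cells, was at 26.8, 16.2 and 1.51 CPM (log2 fold change -3.54 ± 0.42 SE, adjusted p = 0.017). The undivided cells were also low for these genes, with 1.15 CPM of Irf5, 8.66 of Naaa, 0.262 of Pld4, 0.361 of Ifi205 and 2.26 of Cd24a. In the liver libraries of leukemia-bearing mice in the fit, Irf5 ranged from 6.26 to 24.03 CPM and Cd24a from 11.7 to 16.2 CPM. Naaa (6.55 to 10.1 CPM), Pld4 (1.06 to 3.54 CPM) and Ifi205 (0.0688 to 0.251 CPM) stayed below both day 0 libraries there. Among genes that did not pass the test, the largest gaps below day 0 included Plbd1 (88.0, 66.6 and 1.64 CPM), Themis2 (45.8, 52.8 and 1.77 CPM), Lgals3 (45.5, 27.7 and 0.741 CPM), Trf (317, 21.6 and 0.741 CPM), Fcna (318, 16.6 and 0.741 CPM) and Irf8 (93.2, 95.1 and 7.9 CPM). Trf and Fcna were over 10-fold higher in the TG than in the XC library of day 0, whereas Irf8, a factor of dendritic cell and monocyte development, was nearly equal in both. In the same liver libraries, Irf8 (148 to 287 CPM) and Lgals3 (57.1 to 304 CPM) were above both day 0 libraries. Plbd1 (0.18 to 1.01 CPM), Themis2 (4.9 to 10.1 CPM) and Fcna (0.0358 to 1.03 CPM) were below both there. Trf ranged from 0.505 to 62.1 CPM. Which cells gave the RNA of these genes was not tested. Dnajb9, an endoplasmic reticulum co-chaperone, fell as well (43.6, 72.2 and 19.1 CPM; log2 fold change -2.04 ± 0.30 SE, adjusted p = 0.035), as did Gabarapl1, a protein of autophagosomes (16.1, 12.9 and 3.06 CPM; log2 fold change -2.12 ± 0.33 SE, adjusted p = 0.04). In bulk RNA, fewer cells of a type and less RNA per cell cannot be told apart.

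Immediate early genes did not move as one group. Of 35 listed genes, all tested, 2 fell and 0 rose (0.0863% and 0.0664% of all tested genes did), 4 were at least 2-fold below both day 0 libraries (2.31% of all tested genes were) and 1 was at least 2-fold above both (0.524%). The median fitted log2 fold change was -0.40, against -0.0086 over all tested genes, and the median difference from the XC library alone was -0.15. The genes that fell were Dusp5, a phosphatase that inactivates ERK in the nucleus, and Atf3, a stress-induced bZIP factor.

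Dusp5 was at 103 CPM at day 0 (TG), 190.4 at day 0 (XC) and 27.4 at day 18, and it fell in the fit (log2 fold change -2.73 ± 0.35 SE, adjusted p = 0.018). The undivided cells had 35.6 CPM, and the 3 spleen libraries of leukemia-bearing mice at days 7 and 14 had 36.8 to 56.3 CPM. Every library of transferred spleen cells was therefore below both day 0 libraries. This did not hold in the liver libraries of leukemia-bearing mice in the fit, where Dusp5 ranged from 64.1 to 146 CPM. Atf3 was at 26.3 CPM at day 0 (TG), 10.3 at day 0 (XC) and 0.161 at day 18 (5 counts; log2 fold change -6.00 ± 0.94 SE, adjusted p = 0.048) and at 0.426 CPM in the undivided cells.

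The promoters of these 2 genes are shown because they were the only genes of the immediate early list to pass the test. Capitals mark the core of the cyclic AMP response element (TGACG, on either strand) and the CArG box, the site of serum response factor. Atf3 is at chr1:191183334-191183433 on the minus strand and Dusp5 at chr19:53529045-53529144 on the plus strand, in the same layout as above.
Atf3: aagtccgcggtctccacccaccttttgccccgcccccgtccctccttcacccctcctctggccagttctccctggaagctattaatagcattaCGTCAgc
Dusp5: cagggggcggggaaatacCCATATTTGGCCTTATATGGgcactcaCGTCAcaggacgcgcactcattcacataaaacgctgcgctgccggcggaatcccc
The core of the response element starts 7 bases before the start of Atf3 and 55 before that of Dusp5, both on the opposite strand, and 10.5% of all stretches hold it. Dusp5 has 2 adjoining CArG boxes, which start 82 and 72 bases before its start. One CArG box or more was found in 0.615% of the stretches and at least 2 in 4 of them (0.0122%). The matches describe the letters only, and binding was not measured.

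Further immediate early genes were lower at day 18 without passing the test. Tnfaip3, the A20 inhibitor of NF-κB, was at 741 CPM at day 0 (TG), 1359 at day 0 (XC) and 249 at day 18 (adjusted p = 0.58). Nr4a1, the orphan receptor that reports TCR signaling, was at 129, 101 and 37.5 CPM in the 3 libraries. Dusp1, a phosphatase of p38 and JNK, was at 837, 619.8 and 339 CPM, and Ppp1r15a, which restarts translation after stress, at 945, 617 and 422 CPM. The undivided cells gave 239, 51.9, 349 and 417 CPM for these 4 genes. All 4 were thus below both day 0 libraries in both day 18 libraries.

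Other members went the opposite way or did not separate. Egr1, Egr2 and Egr3 are transcription factors that TCR signaling induces through ERK. Egr1 was at 73.4 CPM at day 0 (TG), 58.2 at day 0 (XC) and 130.0 at day 18, Egr2 at 6.32, 4.44 and 10.7 CPM and Egr3 at 3.75, 4.89 and 11.6 CPM, and none passed the test (adjusted p of 0.95 to 0.998). Dusp6, a cytoplasmic ERK phosphatase, was also above both day 0 libraries, at 46.9, 44.4 and 72.4 CPM. Fos was at 1506, 668 and 1091 CPM, Fosb at 54.1, 14.3 and 33.7 CPM and Zfp36 at 385, 157 and 265 CPM, and for each the day 18 value lay between the day 0 libraries. Jun (788, 830.5 and 889 CPM) and Myc (115, 116 and 119 CPM) differed little between the libraries. Heat shock genes, which respond to handling as well, had no member called of 14 tested. In value, 9 of them were below both day 0 libraries and 2 above both (4713 and 4485 of the 15069 tested genes were). Hspa1b was among those above, at 793, 234 and 1058 CPM.

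**Figure D4:**
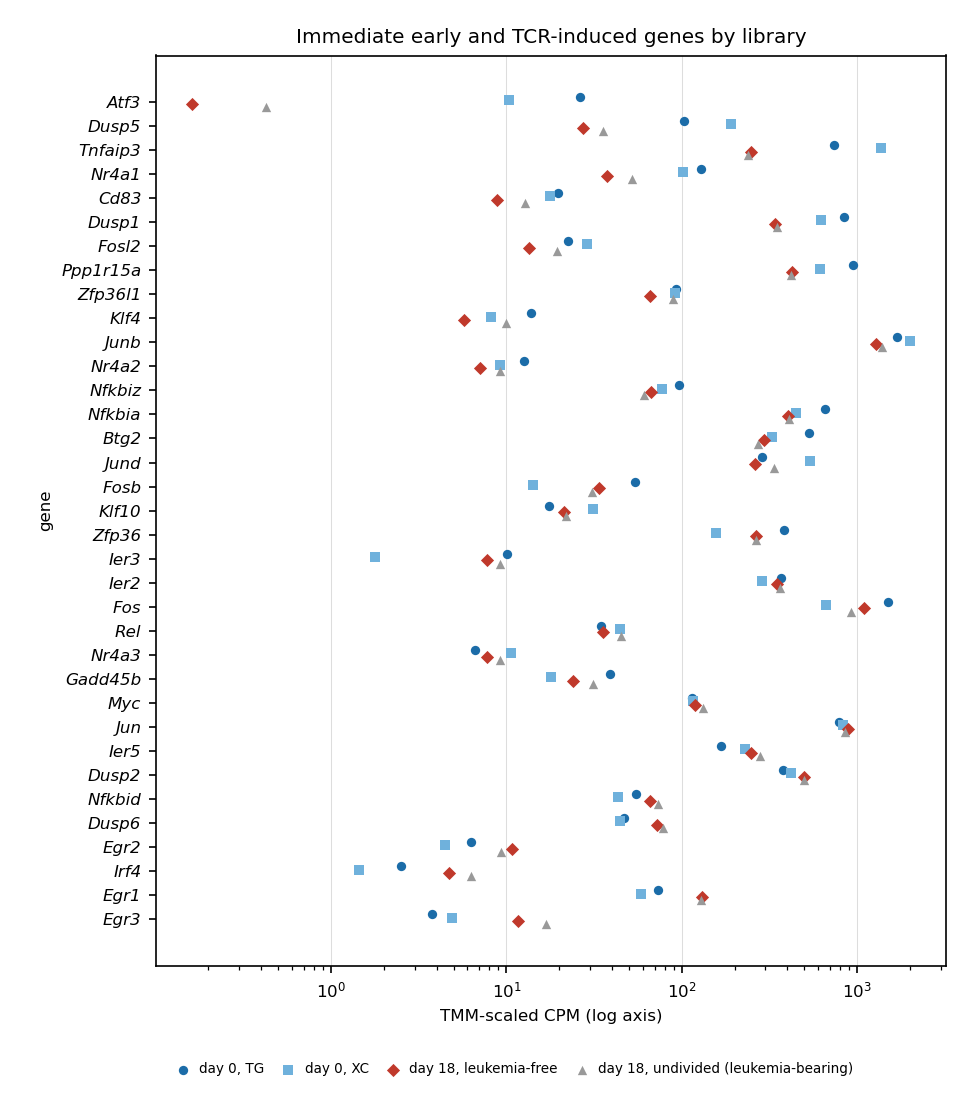
TMM-scaled CPM (log axis) of the 35 immediate early and TCR-induced genes in each library, ordered from the largest gap below both day 0 libraries (top) to the largest gap above both (bottom). Atf3 and Dusp5 at the top were the 2 that passed the test. Egr1, Egr2, Egr3 and Irf4 are at the bottom, above both day 0 libraries in both day 18 libraries.

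Most of the genes that rose were higher in the leukemia-free than in the undivided day 18 library. Egln1, the prolyl hydroxylase that marks HIF-1α for destruction (chr8:124908587-124949324), was at 24.3 CPM at day 0 (TG), 18.0 at day 0 (XC) and 83.8 at day 18 (log2 fold change 2.32 ± 0.29 SE, adjusted p = 0.017). Its level was 23.9 CPM in the undivided cells, 14.8 to 26.4 CPM in the 3 spleen libraries and 23.3 to 55.6 CPM in the 5 liver libraries of leukemia-bearing mice in the fit. No other library of the fit reached the day 18 value.

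Ranbp9, a scaffold of an E3 ubiquitin ligase complex, rose from 44.5 and 30.1 CPM to 121 CPM (log2 fold change 1.98 ± 0.27 SE, adjusted p = 0.024), with 32.5 CPM in the undivided cells. Znrf2, a membrane-associated ubiquitin ligase, rose from 90.6 and 46.7 CPM to 195 CPM (log2 fold change 2.05 ± 0.25 SE, adjusted p = 0.017), with 74.3 CPM in the undivided cells. Chsy1, which builds chondroitin sulfate chains, was at 12.8, 8.11 and 38.6 CPM (log2 fold change 2.23 ± 0.30 SE, adjusted p = 0.024). In the 2 runs of the day 18 library, Egln1 was at 93.9 and 86.3, Ranbp9 at 134 and 134 and Znrf2 at 216 and 215 CPM without TMM factors. Chsy1 differed more, at 44.2 and 34.5 CPM. The runs are of 1 library, so they do not replicate the rise.

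Regulators of transcription were among them. Ski, a corepressor that opposes SMAD signaling from TGF-β, rose from 39.9 and 35.9 CPM to 119 CPM (log2 fold change 1.68 ± 0.25 SE, adjusted p = 0.035), with 40.0 CPM in the undivided cells. At day 18, 99.1% of its estimated counts went to 1 of its 3 transcripts, which took 5.44% and 42.9% in the TG and XC libraries of day 0 and 6.18% in the undivided cells. Irf2bp2, a corepressor of IRF2, was at 59.8, 45.3 and 122 CPM (log2 fold change 1.40 ± 0.22 SE, adjusted p = 0.04), and Zfp777, a zinc finger gene, at 20.1, 16.0 and 55.8 CPM (log2 fold change 1.77 ± 0.28 SE, adjusted p = 0.04). Fam120a, which encodes an RNA-binding scaffold, was at 74.4, 42.3 and 134 CPM (log2 fold change 1.71 ± 0.27 SE, adjusted p = 0.042). In the undivided cells these 3 were at 50.6, 14.9 and 50.7 CPM. Of all tested genes, 76 (0.504%) were at least 2-fold higher in the leukemia-free than in the undivided library. Among them were 8 of the 10 genes that rose. Those 10 were called on the same leukemia-free values, so this overlap is not independent of the calls.

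The other 2 genes that rose were high in both day 18 libraries. Synj2, an inositol phosphatase of membrane traffic (chr17:5941280-6044290), was at 2.22 CPM at day 0 (TG), 3.26 at day 0 (XC) and 31.5 at day 18 and at 31.9 CPM in the undivided cells (log2 fold change 2.98 ± 0.47 SE, adjusted p = 0.048). The transcript that took 58.9% of its counts at day 18 took 5.71% and 0% at day 0 and 51.2% in the undivided cells. Tnf, an inflammatory cytokine, was at 8.51, 2.43 and 13.5 CPM and at 15.9 CPM in the undivided cells (log2 fold change 2.17 ± 0.36 SE, adjusted p = 0.048). Its day 0 libraries differed from each other by more than the TG library differed from day 18.

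Large gaps above day 0 were also seen for genes that did not pass the test. Art2b, an ADP-ribosyltransferase on the surface of mature T cells, was at 13.9 CPM at day 0 (TG), 12.8 at day 0 (XC) and 63.2 at day 18 and at 61.9 CPM in the undivided cells (adjusted p = 0.078). Zfpm1, the GATA cofactor FOG-1, was at 8.67, 12.3 and 55.6 CPM, Mta1, of a chromatin repressor complex, at 16.3, 13.3 and 57.0 CPM, and Cnnm3 at 18.7, 12.0 and 64.1 CPM. The undivided cells had 26.2, 19.2 and 23.7 CPM for these 3. Gm10800, a predicted gene, was at 0.327, 2.82 and 62.6 CPM and at 9.09 CPM in the undivided cells. It varied from 48.9 to 429 CPM over the 3 spleen libraries of leukemia-bearing mice and from 0.0172 to 14.4 CPM over the 5 liver libraries.

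Regulators of the naive state showed no call. None of 16 listed genes passed the test, 1 was at least 2-fold below both day 0 libraries (2.31% of all tested genes were) and 0 were at least 2-fold above. Tcf7, which encodes TCF-1, was at 1059 CPM at day 0 (TG), 1785 at day 0 (XC) and 1411 at day 18, and Lef1, its relative, at 580.2, 761 and 807 CPM. Day 18 thus lay between the day 0 libraries for Tcf7 and slightly above both for Lef1. Klf2, which drives expression of exit and homing receptors, was at 1279, 1411 and 796 CPM (adjusted p = 0.72), and Klf6, the member below both by at least 2-fold, at 1698, 986 and 402 CPM (adjusted p = 0.45). Id3, an inhibitor of E proteins that is high in naive cells, was above both, at 78.3, 60.1 and 139 CPM (adjusted p = 0.54).

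Receptors for homing and exit likewise had no call among 12 genes, and none was past 2-fold of both day 0 libraries. Ccr7, a chemokine receptor of lymph node entry, was at 1318 CPM at day 0 (TG), 1370.1 at day 0 (XC) and 980.1 at day 18, and S1pr1, the exit receptor, at 513, 921 and 599.7 CPM. Cxcr4, a receptor for bone marrow and tissue retention, was the lowest relative to day 0, at 56.4, 68.4 and 30.2 CPM (adjusted p = 0.21). Cd69, an early activation marker that also retains cells in tissue, was at 552, 335 and 270.2 CPM.

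Genes of antigen experience and of memory that forms without antigen had no call either. None of 25 passed the test, 1 was at least 2-fold above both day 0 libraries (0.524% of all tested genes were) and 5 were at least 2-fold below both (2.31% of all tested genes). Eomes, the T-box factor of memory, was the member above, at 6.11 CPM at day 0 (TG), 6.39 at day 0 (XC) and 24.9 at day 18 and at 40.9 CPM in the undivided cells (adjusted p = 0.90). Il2rb, the receptor chain for IL-2 and IL-15, was at 177, 228 and 287 CPM, and Ly6c2, a surface protein of memory and interferon-exposed cells, at 187, 61.3 and 174 CPM. Cd44, a hyaluronan receptor that marks antigen experience, was at 26.5, 12.2 and 5.19 CPM, and Cxcr3, a chemokine receptor for inflamed tissue, at 23.8, 8.23 and 4.16 CPM, with adjusted p of 0.93 and 0.998.
Cytotoxic genes gave no common direction. Gzma was at 9.1, 7.63 and 0.484 CPM, Gzmb at 3.14, 2.05 and 1.77 CPM, Prf1, which forms the pore, at 48.8, 52.1 and 72.4 CPM, and Ifng at 3.05, 1.2 and 0.645 CPM. Apart from Prf1 these were under 10 CPM in every one of the 3 libraries.

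Coinhibitory receptors and exhaustion factors had no call among 12 genes, of which 4 were at least 2-fold below both day 0 libraries (2.31% of all tested genes were) and 0 above. Pdcd1, which encodes PD-1, was at 1.12 CPM at day 0 (TG), 1.39 at day 0 (XC) and 2.42 at day 18, and Lag3 at 0.877, 0.541 and 0.193 CPM. Ctla4 was at 28.3, 13.6 and 1.81 CPM, Havcr2, which encodes TIM-3 and is also expressed by dendritic cells, at 6.54, 12.6 and 0.322 CPM, and Entpd1, the ectonucleotidase CD39, at 10.6, 5.35 and 0.741 CPM. Tox, a regulator of exhaustion that naive cells also express at low level, was at 32.2, 54.0 and 78.7 CPM. The same 5 liver libraries ranged from 232 to 961 CPM for Pdcd1 and from 53.4 to 160.1 CPM for Lag3.

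Genes of the TCR complex and its proximal signaling had no call. Of 23 genes none passed the test and none was past 2-fold of both day 0 libraries, with a median difference of 0.018 from the XC library and 0.17 from the TG library. Cd3e was at 812 CPM at day 0 (TG), 915 at day 0 (XC) and 918 at day 18, Lck, the kinase bound to CD8, at 1537, 1334 and 1271 CPM, and Zap70, which docks on the phosphorylated receptor, at 135.2, 160.2 and 161 CPM. Cd5, a brake on TCR signaling whose level follows self-reactivity, was at 131, 110.4 and 151 CPM. Ptpn6, the phosphatase SHP-1, was the member with the lowest adjusted p, at 404, 336 and 531 CPM (adjusted p = 0.69).

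The receptor genes themselves were measured through their annotated segments. Of 17 listed genes found in the index, 10 were tested and none of these was called. At least 2-fold above both day 0 libraries were 4 of them (0.524% of all tested genes were). The TCR-γ constants were listed under symbols that the index lacks, so Tcrg-C1, described below, is not among the 17. Trbc2 was at 29583, 18380.0 and 15402 CPM, and Trac, the constant α segment, at 597, 708 and 995 CPM. Trav13d-2 and Trav13n-2, which had identical values and are near-identical copies, were each at 35.5, 31.3 and 73.1 CPM (adjusted p = 0.48). Both copies count among the 4. Tcrg-C1, a constant segment of the TCR-γ locus, fell from 7.9 and 4.46 CPM to 3 counts, and its mean at day 0 was 63.9 times the day 18 level (95% Poisson interval 21.9 to 309.8; log2 fold change -5.74 ± 0.95 SE, adjusted p = 0.048). Reads of segments that share sequence were divided by the quantifier, which these errors do not include.

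Cytokine receptor and STAT genes had no call among 30. Of these, 13 were above both day 0 libraries and 5 below both (4485 and 4713 of the 15069 tested genes were). At 2-fold or more, 1 was above both (0.524% of all tested genes) and 1 below both (2.31%). Il7r, the receptor for the survival cytokine IL-7, was at 326 CPM at day 0 (TG), 341 at day 0 (XC) and 456 at day 18, and Il2rg at 1334, 811 and 960.2 CPM. Pim1, a kinase that cytokines induce, was the one at least 2-fold below both, at 91.2, 108 and 44.1 CPM.

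Interferon-stimulated genes had no call as well. None of 44 passed the test, 0 were at least 2-fold above both day 0 libraries and 1 was at least 2-fold below (0.524% and 2.31% of all tested genes). The median fitted log2 fold change was -0.14, whereas the median direct difference was 0.16 from the XC library and 0.11 from the TG library. In value, 22 were above both day 0 libraries and 8 below both (4485 and 4713 of the 15069 tested genes were). Irf7, the factor that amplifies type I interferon, was at 167, 114 and 104 CPM, and Isg15 at 31.1, 16.8 and 19.4 CPM. The GTPases that interferon-γ induces were above both libraries in value, with Igtp at 154, 106 and 208 CPM and Gbp2 at 79.0, 77.0 and 123 CPM. Rsad2, which encodes viperin, was the member below by 2-fold, at 24.5, 22.1 and 9.73 CPM. Among 19 genes of MHC class I and peptide loading none was called, 13 were above both day 0 libraries (4485 of the 15069 tested genes were) and 0 below both (4713 were). H2-K1, which encodes the molecule that restricts TCRTg101, was at 4596, 3465 and 4158 CPM, and H2-Q7, a nonclassical gene whose reads overlap with near copies, at 1522, 1163 and 1962 CPM.

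Survival genes were tested through the BCL2 family and the Gimap GTPases. None of 15 tested BCL2 genes and none of 8 Gimap genes passed, and none was past 2-fold of both day 0 libraries. Bcl2, the antiapoptotic protein that IL-7 maintains, was at 245 CPM at day 0 (TG), 298 at day 0 (XC) and 192 at day 18. Bcl2l11, which encodes the proapoptotic BIM, was at 55.1, 84.2 and 45.2 CPM, and Mcl1 at 532, 732 and 549.9 CPM. Both Bcl2 and Bcl2l11 were therefore below both day 0 libraries in value, by less than 2-fold. Of the 15 tested BCL2 genes, 10 were below both and 0 above both (4713 and 4485 of the 15069 tested genes were).

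Genes that glucocorticoids induce, and genes of the circadian clock, were listed because both programs can differ between collections. None of 16 glucocorticoid-responsive genes and none of 18 clock genes passed the test, with 2 and 3 at least 2-fold below both day 0 libraries (2.31% of all tested genes). Tsc22d3, which encodes GILZ, was at 1739 CPM at day 0 (TG), 1292 at day 0 (XC) and 647 at day 18 (adjusted p = 0.74), just short of 2-fold below the nearer library. Per1, on both lists, was at 46.1, 71.1 and 21.8 CPM (adjusted p = 0.21), and Nfil3, a repressor of clock output, at 21.8, 24.4 and 5.71 CPM (adjusted p = 0.053). Dbp, a clock output gene with a strong daily rhythm, was at 14.5, 16.6 and 15.7 CPM, and Arntl, which encodes BMAL1, at 26.8, 41.4 and 33.5 CPM. The hour of collection is not given in the sources used here.

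Genes of cell division had no call. None of 32 passed the test. At day 18, 24 were below both day 0 libraries and 5 above both (4713 and 4485 of the 15069 tested genes were). Of the 32, 3 were at least 2-fold below both (2.31% of all tested genes were). The median difference was -0.43 from the XC library and -0.84 from the TG library on the log2 scale. Mki67, the proliferation antigen, was at 13.1 CPM at day 0 (TG), 3.88 at day 0 (XC) and 1.03 at day 18 and at 3.38 CPM in the undivided cells. Among the 5 exceptions, the licensing factor Mcm2 (72.1, 91.2 and 103 CPM) and the G1 cyclin Ccnd2 (517, 499 and 548 CPM) were above both day 0 libraries in value, by less than 2-fold. Glycolysis (20 genes) and cholesterol synthesis (24 genes) had no call and no member past 2-fold of both day 0 libraries. Ldha was at 1235, 819 and 777 CPM, and Hmgcs1 at 41.0, 70.8 and 57.9 CPM.

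Ribosomal protein, oxidative phosphorylation and mitochondrial genes set the TG library of day 0 apart rather than day 18. The 81 tested ribosomal protein genes had a median difference at day 18 of 0.20 from the XC library and -0.46 from the TG library, on a log2 scale. The 80 nuclear genes of oxidative phosphorylation gave 0.038 and -0.63. The 13 mitochondrial genes summed to 16455 CPM in the TG library, 5709 in the XC library and 6086 at day 18, and mt-Atp6, a subunit of the ATP synthase, was at 1998, 175 and 166 CPM. None of these genes was called.

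**Figure D5:**
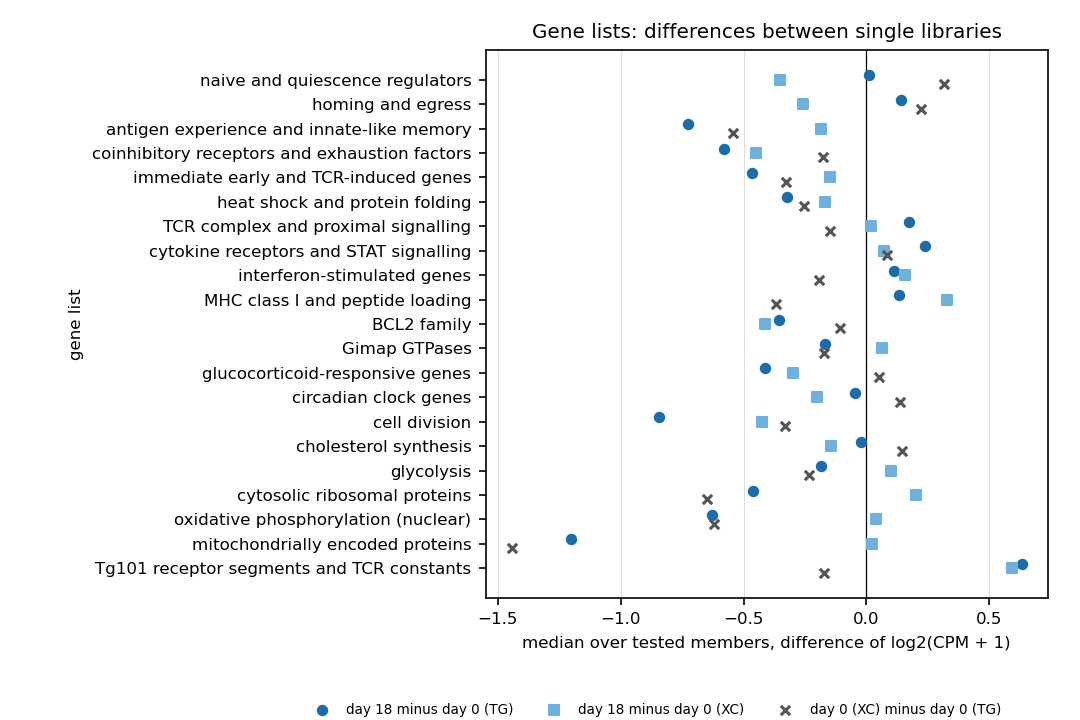
Median over the tested members of each gene list of the difference in log2(CPM + 1) between 2 libraries, for day 18 minus each day 0 library and for the XC minus the TG library of day 0. For mitochondrial genes day 18 lies at 0.023 against the XC library and at -1.20 against the TG library, and the day 0 libraries differ from each other by -1.44. Sex-linked transcripts are not drawn.

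Transcripts of the Y chromosome separated the libraries. All 4 tested genes were at least 2-fold below both day 0 libraries at day 18 (2.31% of all tested genes were), and 1, Kdm5d, fell in the fit (log2 fold change -2.49 ± 0.39 SE, adjusted p = 0.04). Ddx3y, an RNA helicase, was at 29.2 CPM at day 0 (TG), 91.2 at day 0 (XC) and 0.129 at day 18 (4 counts), Eif2s3y at 27.6, 59.3 and 0.0645 CPM and Uty at 13.0, 36.3 and 2.35 CPM. Kdm5d was at 26.8, 53.7 and 10.4 CPM, and it has a close relative on the X chromosome with which reads can be shared. The undivided cells had 0.131 CPM of Ddx3y, and the 3 spleen libraries of leukemia-bearing mice ranged from 0.618 to 81.0 CPM. The leukemia-free cells thus differ from day 0 in Y-linked RNA as well as in transfer and time, and whatever comes with the sex of the cells cannot be told apart from the day here.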

How the data were processed

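RNA of sorted TCRTg101 was sequenced from low input, and the authors deposited estimated counts and TPM values (not used here) per transcript from kallisto, with the genome builds GRCm38 and mm10 named in the submitters' notes. Transcripts were matched to genes (98.25% of them, 99.0 to 99.29% of counts) and summed per gene, and the runs of a library were added and rounded. Kallisto divides reads among similar transcripts, and the strand of the kit is not given in the sources used here. A gene was tested if 6 or more of 12 low-input libraries had 10 or more counts of it, with the quasi-likelihood test of edgeR 4.0.16 (robust, TMM factors, group and series as terms, Benjamini-Hochberg adjusted p under 0.05). Which batch a library belonged to is not given, so the series in its title was used. The 12 libraries were all low-input ones except both liver libraries of day 7. The lone day 18 library was assumed to vary like the other groups, and groups of a single library add nothing to the pooled spread. The fit adjusts for the series, so a fitted change can differ from the direct values. A gene was counted as past 2-fold of both day 0 libraries with 1 CPM added. Intervals are exact Poisson 95% and, like the 3-count limit, cover counting error only. Beside list members and called genes, the text names per direction the 12 protein-coding genes with the largest gap to the nearer day 0 library, called genes first, at a mean of at least 20 CPM and on no list of another cell type. Members and lists were chosen with earlier results of these data known. The steps were run on simulated data with the same spread for all genes and no series effect, which checks the code and not these calls. DESeq2, RLE factors, other filters, other sets of libraries and the first runs alone were the alternatives. Some items of these lists are not reported here.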

Additional observations from a re-analysis of the deposited data

How the results depend on the processing

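The number of called genes depended on the libraries and the model, and the direction of the 23 called genes was the same in every setting in which each could be fitted. All 23 were called again with RLE factors, with DESeq2 (236 genes in all, 39 higher and 197 lower), with a filter on the 3 libraries compared, and with no filter (294, 69 and 225). With the first run of each library 17 of them were called, and with the 3 libraries alone 10 of them (118 genes in all, 10 higher and 108 lower). edgeR called 0 genes, 0 higher and 0 lower, in the 11 libraries the study drew together (524 at an unadjusted p under 0.05), in all 14 low-input libraries (540), in spleen libraries only (460) and without the series covariate (507), so immediate early and sex-linked genes had 0 calls there too. Leaving out each day 0 library in turn gave 0 to 24 genes, 0 to 3 higher and 0 to 21 lower. The TG library left out gave 0 calls, and the XC library left out gave 24, with Egln1 and Cd24a the 2 genes shared with the 23. The causes were not tested.

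Calls on the lists moved as follows. DESeq2 called 2 naive, 1 homing, 3 antigen experience, 3 coinhibitory, 1 interferon-stimulated, 2 BCL2, 4 glucocorticoid-responsive, 3 clock, 2 cell division, 4 sex-linked and 1 receptor segment gene. No filter gave 2 naive, 1 homing, 3 antigen experience, 3 coinhibitory, 6 immediate early, 1 interferon-stimulated, 1 BCL2, 4 glucocorticoid-responsive, 4 clock, 3 cell division and 3 receptor segment genes. The 3 libraries alone gave 1 antigen experience, 2 coinhibitory, 1 immediate early and 1 BCL2 gene, and the filter on these libraries gave 1 clock gene. Without a day 0 library, the naive, interferon-stimulated and glucocorticoid-responsive lists each had 0 to 1 calls, immediate early genes 0 to 3 and sex-linked genes 0 to 0. At 4-fold, 10 genes were above both day 0 libraries and 129 below both.

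No paired analysis was possible because the day 18 side has 1 library and the labels give no replicate numbers.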
